A study of Mus musculus with 9 samples.

Results

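The integrated stress response and the genes that answer it were examined in lung macrophages of mice that had breathed ozone. The set comprised 36 of the 54281 genes in the deposited table. They were chosen by gene symbol as the transcription factor ATF4 and its partners, its targets in amino acid, serine and one-carbon metabolism, and 12 cytosolic aminoacyl-tRNA synthetases, and all 36 were abundant enough to be tested. Female wild-type mice aged 12 weeks were used, and the cells were washed out of the air spaces while the lung was gently massaged. Groups of 3 mice each were killed 72 h or 24 h after breathing 0.8 ppm ozone for 3 h, and 3 mice that had breathed air served as controls. Ozone is an oxidant gas that damages the epithelium of the air spaces. Each library was a bulk measurement of 1 mouse, so for every level given here fewer cells of a type and less RNA per cell cannot be told apart.

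Cells that lack amino acids, that carry unfolded protein in the endoplasmic reticulum, or that meet viral RNA or a shortage of haem phosphorylate the initiation factor eIF2. Most translation then slows, while the mRNA of Atf4 is translated better. ATF4 protein binds C/EBP-ATF response elements and raises genes that make, import and load amino acids, among them the aminoacyl-tRNA synthetases, which join each amino acid to its tRNA. Because ATF4 itself is controlled largely at translation, its mRNA is not a direct reading of its activity.

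Of the 29 genes with a promoter in the RefSeq table (GRCm38.p6, 250 bases before to 50 bases after the start), 10 held the element core TGATGNAAN on either strand. That is 34.5% of them, against 4.5% of the genes in the table, 1215 of 27025. A match of each is printed with 10 bases on each side because they show which genes carry the letters that ATF4 is known to bind. Aars held another match, not printed, that began 113 bases before the start. The printed matches of Trib3, Yars, Aars and Iars began after the start, at bases 14, 4, 9 and 7. The strand is that of the gene, and capitals mark the match, which reads NTTNCATCA where it lies on the opposite strand. A match is a description of letters and was not tested as a binding site. Because the set was chosen as ATF4, its partners and its targets, a share above that of all genes could follow from the choice and tests nothing. The first 3 genes were called lower at 72 h than in air, as described below, and the others were not.
Asns (chr6:7693214-7693242, minus strand): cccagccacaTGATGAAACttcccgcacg
Trib3 (chr2:152344029-152344057, minus strand): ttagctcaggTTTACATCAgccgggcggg
Yars (chr4:129189896-129189924, plus strand): cgagctcagcTGATGCAACccgacgggac
Aars (chr8:111033840-111033868, plus strand): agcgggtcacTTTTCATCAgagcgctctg
Gars (chr6:55037960-55037988, plus strand): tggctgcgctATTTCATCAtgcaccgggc
Iars (chr13:49682126-49682154, plus strand): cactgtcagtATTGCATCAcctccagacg
Tars (chr15:11399656-11399684, minus strand): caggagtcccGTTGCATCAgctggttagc
Nupr1 (chr7:126625563-126625591, minus strand): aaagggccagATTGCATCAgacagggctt
Chac1 (chr2:119351038-119351066, plus strand): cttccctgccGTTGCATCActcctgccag
Pycr1 (chr11:120643833-120643861, minus strand): gccctgtgtaTGATGCAATgcacaaggct

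A match stood in 5 of the 8 synthetases with a promoter in the table. Matches stood in 2 of 3 genes of asparagine and proline synthesis, in 2 of 6 regulators and in 1 of 4 brakes and effectors, and in 0 of 3 serine genes, 0 of 3 mitochondrial one-carbon genes and 0 of 2 transporters. The match of Asns began 23 bases before the start. In human cells the ASNS promoter is known to answer a lack of amino acids through an element of this kind. Its upstream region is shown whole because Asns had the largest fall, after Atf5, of the 8 genes called lower at 72 h.
Asns, 250 bases before the start (chr6:7693210-7693459, minus strand): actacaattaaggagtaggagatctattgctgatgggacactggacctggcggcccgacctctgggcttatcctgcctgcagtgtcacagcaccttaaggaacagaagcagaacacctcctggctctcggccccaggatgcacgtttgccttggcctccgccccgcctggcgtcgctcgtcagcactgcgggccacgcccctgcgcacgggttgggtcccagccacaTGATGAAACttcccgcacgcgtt

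The libraries held 47095543 to 60248305 counts. Summed markers of alveolar macrophages, 15 of which were detected in every library, came to 28512 to 33943 CPM (counts scaled to library size) at 72 h, 24440 to 34076 CPM at 24 h and 36198 to 38565 CPM in air. Chil3 alone made up most of this sum, and the 14 other markers came to 10626 to 13115 CPM at 72 h, 9630 to 12397 CPM at 24 h and 13019 to 13953 CPM in air. A pair of libraries stood apart, replicate 1 at 72 h and replicate 2 at 24 h. Their summed B cell markers were 1027 and 1614 CPM, where the 7 others held 158 to 200.2 CPM, nearly all of it Cd22 (155 to 216 CPM in all 9 libraries), and their markers of serous cavity macrophages were 912 and 674 CPM, against 2.84 to 5.01 CPM. These 2 libraries were also the highest in markers of erythroid cells (2511 and 2909 CPM, against 12.2 to 855 CPM), T cells (59.0 and 515 CPM, against 2.06 to 9.42 CPM), neutrophils (108 and 140.2 CPM, against 19.7 to 31.2 CPM) and monocytes (199.7 and 289.8 CPM, against 33.7 to 52.0 CPM). Their share of mitochondrial counts was 6.18% and 5.25%, against 2.71% to 3.07%. Air replicate 2 held 2.42 CPM of Xist, where the remaining 8 libraries held 887 to 1482 CPM, which goes against its female label. Counts of called genes of the set are given with and without these libraries, as are adjusted p-values of its single genes whose call was lost.

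In edgeR's quasi-likelihood test with Benjamini-Hochberg adjustment over 15713 genes, 8 of the 36 genes had an adjusted p under 0.05 at 72 h against air, hereafter called, and all 8 were lower, while 28 were not called. That is 22.2% of the set. Of all tested genes 5.47% were called, 3.77% lower and 1.71% higher. The 8 comprised the regulators Atf4, Atf5 and Trib3, the asparagine synthetase gene Asns, the mitochondrial folate enzyme gene Mthfd2, the translation repressor gene Eif4ebp1 and the tRNA synthetase genes Sars and Yars. Of the 36 estimates 32 were negative, with a median log2 fold change of -0.21, where 8009 of 15713 genes were negative with a median of -0.01. All 3 libraries at 72 h lay below all 3 in air for 18 of the 36 genes, and this held for 22.1% of all tested genes. Of the 15 alveolar macrophage markers 3 were called lower at 72 h than in air and 0 higher, and without Chil3 their sums at 72 h and in air overlapped. Of 9 dendritic cell markers 4 were called higher, with sums of 137 to 153.5 CPM at 72 h, 68.2 to 171 CPM at 24 h and 69.4 to 80.3 CPM in air. Of 13 alveolar epithelium markers 6 were called higher, with sums of 219 to 276 CPM at 72 h, 209 to 297 CPM at 24 h and 209.7 to 253 CPM in air. The part of these cells in the differences was not tested.

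**Figure D1:**
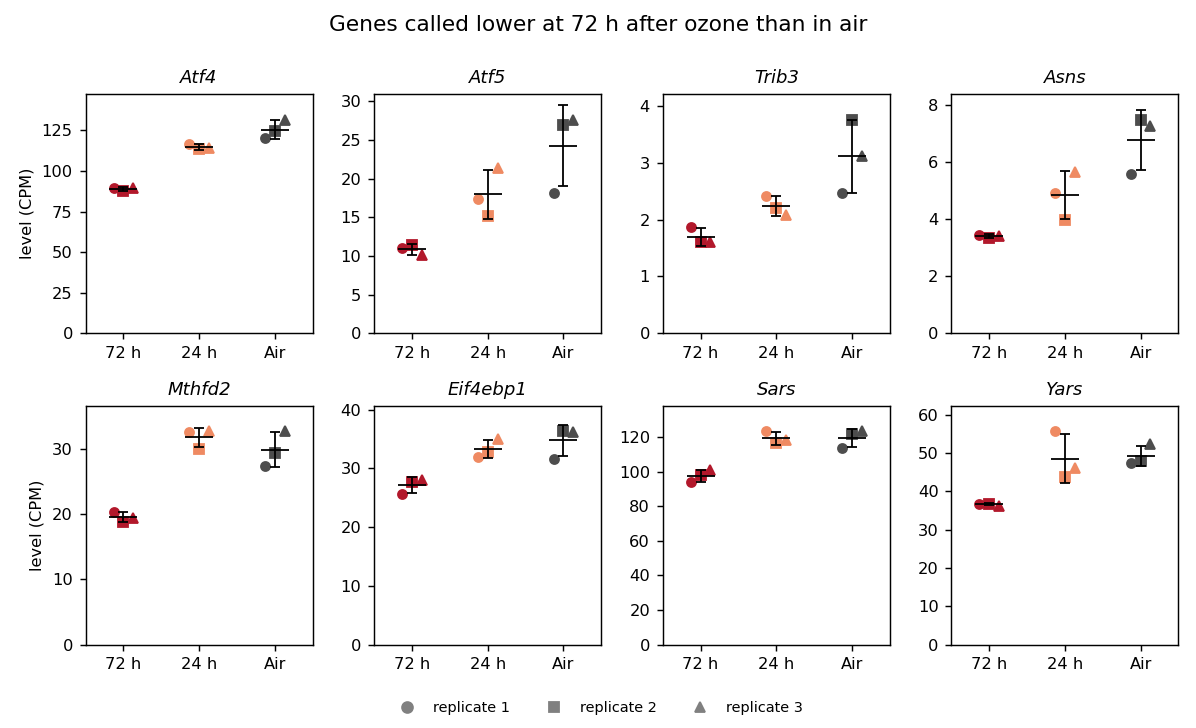
Levels in CPM (vertical axis, from 0) of the 8 genes called lower at 72 h than in air, for 72 h, 24 h and air from left to right. Marker shapes give the replicate, and the black bar and whiskers give the mean and SD of 3 mice. Every library at 72 h lies below every library in air, and the mean at 24 h lies between those of the other groups in all of them but Mthfd2.

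At 24 h after ozone, 0 of the 36 genes were called by edgeR, where 0.00636% of all genes, 1 of 15713, were called. Without adjustment, 6 were higher and 4 lower at an edgeR p under 0.05, where 1364 and 950 of the 15713 genes were. Limma voom called 0 of the set and 1 of all genes. DESeq2, which called 580 of 31312 genes, 398 of them higher, called 3 of the set higher. They were Psat1 (DESeq2 adjusted p = 0.00346), Mthfd1l (0.0262) and Shmt2 (0.0426). All 3 libraries at 24 h lay above all 3 in air for 7 of the 36 genes and below them for 2, and this held for 10.4% and 9.06% of all genes. The median log2 fold change of the set was 0.02, and that of all genes was 0.01.

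At 72 h, 15 of the 36 genes were called lower than at 24 h and 0 higher, 41.7% of the set, where 18.2% of all genes were called, 12.8% lower and 5.39% higher. Of the estimates 33 were negative, with a median of -0.24 against -0.03 for all genes. The libraries of 23 genes did not overlap, each time with 72 h lower, and this held for 22.7% of all genes. The 3 serine synthesis genes and the 3 mitochondrial one-carbon genes were all among the 15. A joint test of any difference among the 3 groups called 13 of the 36, where it called 13.2% of all genes.

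**Figure D2:**
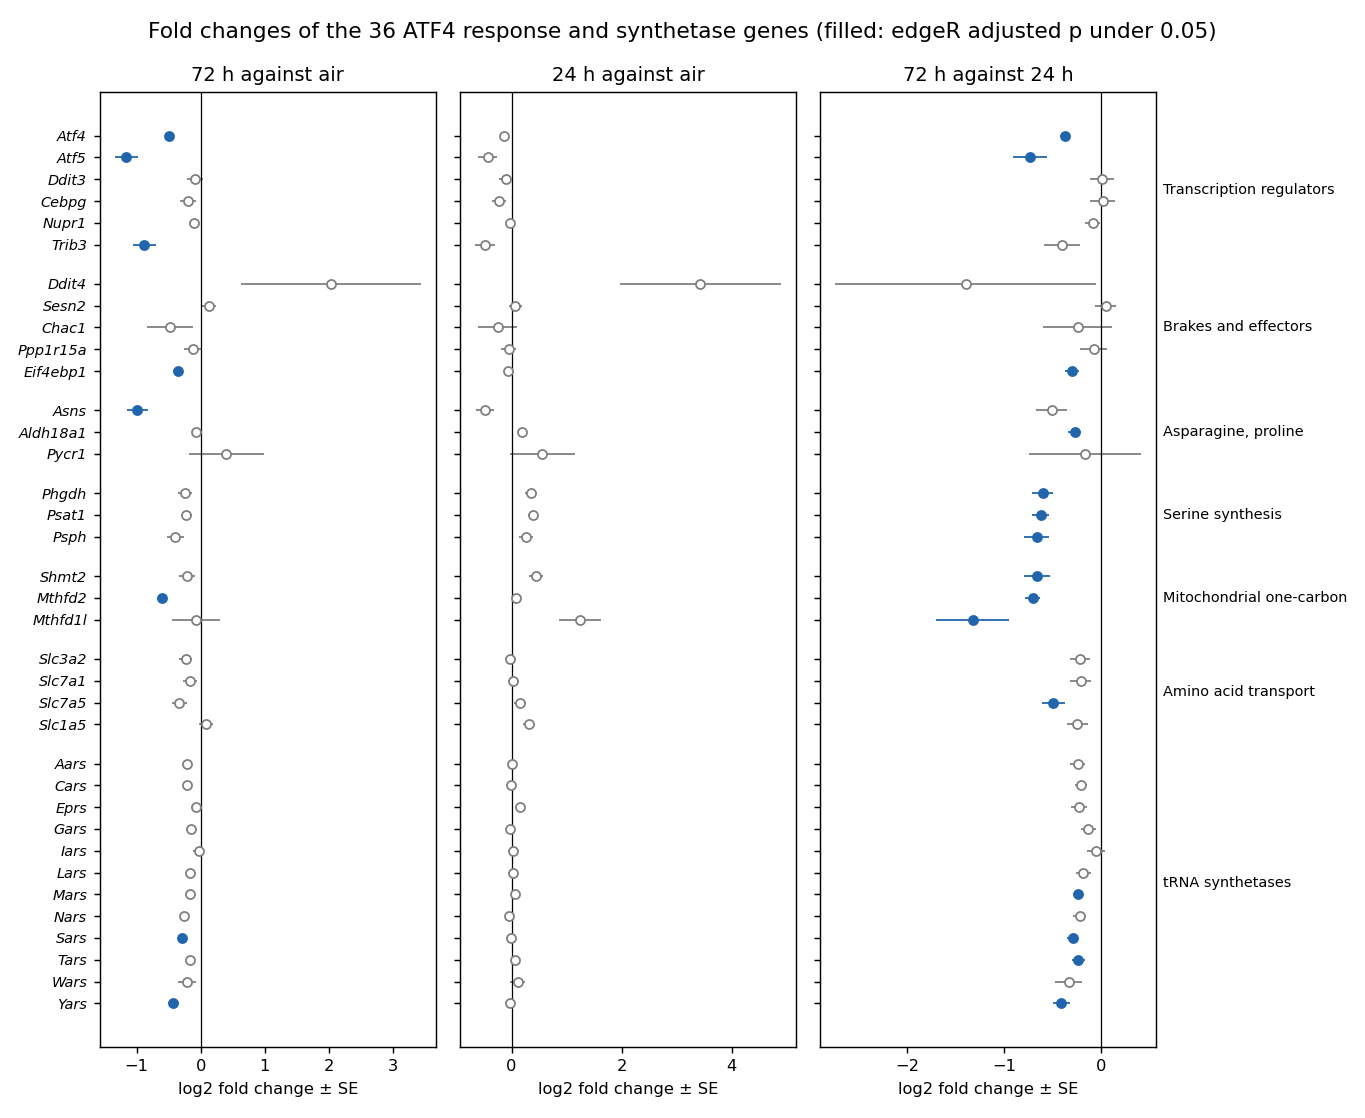
Log2 fold changes with SE (horizontal axes, whose ranges differ between panels) of the 36 genes, grouped by role from top to bottom, in 3 panels that set 72 h against air, then 24 h against air, then 72 h against 24 h. Filled points had an edgeR adjusted p under 0.05, which 8, 0 and 15 genes had, all on the negative side. The long whiskers of Ddit4 come with 2 libraries of high level.

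Atf4 (ENSMUSG00000042406.8, chr15:80255184-80257541, plus strand, GRCm38) encodes the factor at the centre of the response. It measured 89.4, 87.6 and 89.7 CPM at 72 h, 117, 113 and 114 CPM at 24 h, and 120.0, 125 and 131 CPM in air. The 3 groups did not overlap, with 72 h lowest and air highest. The log2 fold change was -0.50 ± 0.05 (SE) at 72 h against air, a fall to 0.709 of the air level (edgeR adjusted p = 0.0048), and -0.37 ± 0.05 at 72 h against 24 h (adjusted p = 0.00609). At 24 h against air it was -0.13 ± 0.05 and was not called (adjusted p = 0.304). Of the 8 calls at 72 h against air that of Atf4 was kept most often, in 10 of 10 other settings and in 8 of 9 fits that left out 1 library; without replicate 2 at 72 h its adjusted p was 0.0707.

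Atf5 encodes a related factor that is also translated better when eIF2 is phosphorylated and that serves the mitochondrial stress response. Its levels were 11.01, 11.4 and 10.1 CPM at 72 h, 17.4, 15.2 and 21.4 CPM at 24 h, and 18.2, 26.9 and 27.6 CPM in air. The 72 h libraries lay below the others, while the 24 h and air libraries overlapped. At 72 h the level was 0.448 of that in air (log2 fold change -1.16 ± 0.18, edgeR adjusted p = 0.0234) and 0.603 of that at 24 h (-0.73 ± 0.18, adjusted p = 0.0258). The call against air was kept in 8 of 10 other settings and in 3 of 9 fits that left out 1 library. Both calls were lost without the 2 libraries that carried B cell markers and air replicate 2, with adjusted p-values of 0.0623 and 0.0591. Atf5 shares 571 bases of exon or intron with Nup62 on the opposite strand, which had 56.9 CPM on average, and the strand setting of the counting was not stated, so reads of the 2 genes may not have been told apart.

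Trib3 encodes a pseudokinase that ATF4 induces together with CHOP and that feeds back on ATF4. It was scarce, with 1.87, 1.60 and 1.61 CPM at 72 h, 2.42, 2.21 and 2.09 CPM at 24 h, and 2.46, 3.76 and 3.13 CPM in air. The 72 h libraries were below all others. At 72 h against air the log2 fold change was -0.88 ± 0.19 (edgeR adjusted p = 0.0364), and at 72 h against 24 h it was -0.40 ± 0.18 and was not called (adjusted p = 0.167). The call against air was kept in 6 of 10 other settings and in 2 of 9 fits that left out 1 library, and without the 2 libraries and air replicate 2 its adjusted p was 0.0901.

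The other 3 regulators were not called in any comparison. Ddit3, which encodes CHOP, the factor linked to death under lasting endoplasmic reticulum stress, had 11.2, 9.51 and 12.1 CPM at 72 h, 10.4, 10.7 and 11.4 CPM at 24 h, and 10.8, 10.8 and 13.4 CPM in air. These groups overlapped, with a log2 fold change of -0.09 ± 0.12 at 72 h against air (edgeR adjusted p = 0.661). Cebpg, which encodes a C/EBP partner of ATF4, was the most abundant regulator, at 143, 185 and 196 CPM at 72 h, 171, 149.9 and 196 CPM at 24 h, and 200.2, 195 and 206 CPM in air. Its log2 fold change at 72 h against air was -0.20 ± 0.13 (adjusted p = 0.357), and the lowest values were those of the libraries that carried B cell markers, without which it was -0.05 ± 0.07. Nupr1, a stress-induced chromatin-associated protein gene, lay between 21.5 and 26.1 CPM in all 9 libraries.

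Among genes that restrain translation or growth, Eif4ebp1 was called. Its product binds the cap-binding factor eIF4E and blocks initiation. It measured 25.6, 27.7 and 28.1 CPM at 72 h, 31.9, 32.9 and 35.0 CPM at 24 h, and 31.7, 36.4 and 36.2 CPM in air. All 3 libraries at 72 h lay below the other 6. The log2 fold change was -0.36 ± 0.07 against air (edgeR adjusted p = 0.0331) and -0.29 ± 0.07 against 24 h (adjusted p = 0.0267). Without the libraries that carried B cell markers these adjusted p-values were 0.0597 and 0.0921. The call against air was kept in 4 of 10 other settings and in 2 of 9 fits that left out 1 library.

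Other genes of this role showed no call. Sesn2, a leucine sensor that restrains mTORC1, ranged over 28.8 to 30.2 CPM at 72 h, 24.6 to 31.95 CPM at 24 h and 23.4 to 29.4 CPM in air. Ppp1r15a encodes GADD34, which brings a phosphatase back to eIF2 and ends the response, and its means were 8.12 ± 1.04 CPM at 72 h, 8.53 ± 1.47 CPM at 24 h and 8.85 ± 0.148 CPM in air (SD, n = 3). Chac1, which encodes a glutathione-degrading enzyme used as a sensitive marker of ATF4 activity, was near the limit of detection, with 16 to 42 counts per library. Its log2 fold change at 72 h against air was -0.48 ± 0.36 (edgeR adjusted p = 0.413).

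Ddit4, which encodes the mTORC1 inhibitor REDD1, differed more between mice than between groups. It had 4.50, 0.773 and 0.999 CPM at 72 h, 0.621, 15.2 and 0.632 CPM at 24 h, and 0.354, 0.406 and 0.765 CPM in air. All 3 libraries at 72 h lay above all 3 in air, which held for no other gene of the 36 and for 17.5% of all genes. The high values, 4.50 and 15.2 CPM, were those of the libraries that also carried markers of B cells, serous cavity macrophages and the other blood cells named above, and the part of these markers was not tested. The log2 fold change was 2.03 ± 1.40 at 72 h against air (edgeR adjusted p = 0.394) and 3.43 ± 1.46 at 24 h against air (adjusted p = 0.342). Without the 2 libraries it was 0.81 ± 0.35 (adjusted p = 0.172) and 0.29 ± 0.36 (adjusted p = 0.759).

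**Figure D3:**
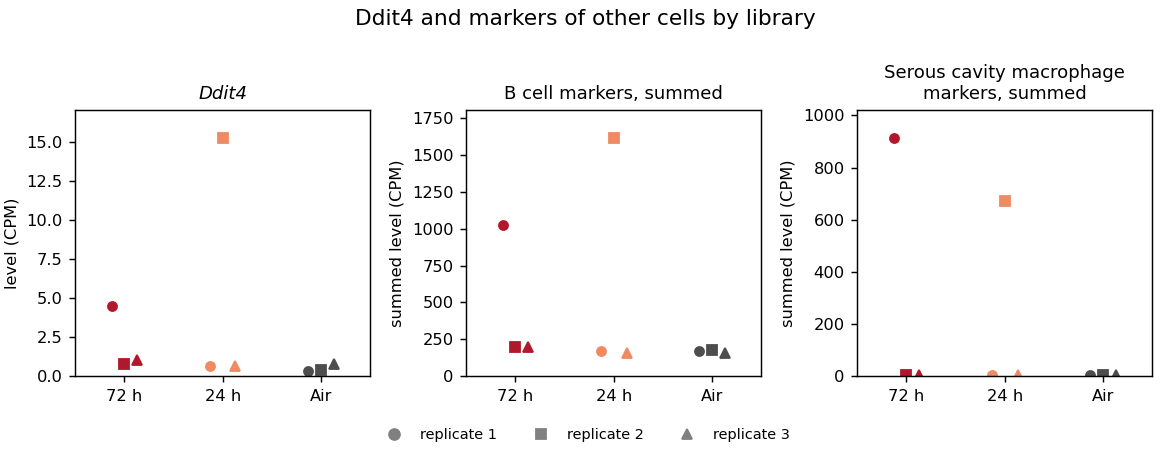
Level of Ddit4 in CPM and summed levels in CPM of B cell and serous cavity macrophage markers (vertical axes, from 0) in each library, for 72 h, 24 h and air from left to right, with marker shapes for the replicate. Replicate 1 at 72 h and replicate 2 at 24 h are the high points in each of the 3 panels.

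Of the 3 genes of asparagine and proline synthesis, Asns was called against air. Asns, the enzyme that makes asparagine and a classic ATF4 target, measured 3.46, 3.35 and 3.42 CPM at 72 h, 4.92, 3.98 and 5.65 CPM at 24 h, and 5.59, 7.49 and 7.27 CPM in air. The 72 h libraries were nearly alike and below all others, and the 24 h libraries overlapped with air. At 72 h the level was 0.503 of that in air (log2 fold change -0.99 ± 0.16, edgeR adjusted p = 0.0238), and against 24 h it was not called (-0.51 ± 0.16, adjusted p = 0.0616). In 9 of 10 other settings the call against air was kept, and in 2 of 9 fits that left out 1 library.

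Aldh18a1 encodes the enzyme that commits glutamate to proline. It had 55.0, 59.7 and 57.7 CPM at 72 h, 73.1, 62.3 and 72.2 CPM at 24 h, and 59.2, 62.1 and 60.2 CPM in air, so that 24 h stood above both other groups. It was called lower at 72 h than at 24 h (log2 fold change -0.27 ± 0.07, edgeR adjusted p = 0.0306), a call kept in 5 of 10 other settings and in 1 of 9 fits that left out 1 library, and its change at 72 h against air was -0.07 ± 0.07 (adjusted p = 0.521). Pycr1, the last enzyme of the mitochondrial route to proline, had 2 to 18 counts per library, and at this depth no difference was detectable (log2 fold change 0.40 ± 0.59 at 72 h against air, edgeR adjusted p = 0.698).

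The serine genes followed the 24 h time point. Phgdh, Psat1 and Psph encode the 3 steps that turn the glycolytic intermediate phosphoglycerate into serine. In each of them all 3 libraries at 24 h lay above all 3 in air and above all 3 at 72 h. Phgdh measured 174, 212 and 177 CPM at 72 h, 267, 278 and 309.6 CPM at 24 h, and 199.6, 223 and 246 CPM in air. It was called lower at 72 h than at 24 h (log2 fold change -0.60 ± 0.11, edgeR adjusted p = 0.01). Against air it was 0.35 ± 0.11 at 24 h (adjusted p = 0.217) and -0.25 ± 0.11 at 72 h (adjusted p = 0.196).

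Psat1 measured 21.9, 20.1 and 21.2 CPM at 72 h, 31.0, 34.4 and 31.8 CPM at 24 h, and 22.0, 24.8 and 27.2 CPM in air. The 72 h level was 0.650 of that at 24 h (log2 fold change -0.62 ± 0.08, edgeR adjusted p = 0.00602). Psph measured 9.42, 7.07 and 7.77 CPM at 72 h, 12.3, 14.3 and 11.7 CPM at 24 h, and 10.02, 10.3 and 11.5 CPM in air. It too was called lower at 72 h than at 24 h (-0.66 ± 0.13, adjusted p = 0.013), and it shares 452 bases with a transcript of Cct6a on the opposite strand. At 72 h against air Psph was -0.39 ± 0.13 (adjusted p = 0.103), and it was called there without the libraries that carried B cell markers (adjusted p = 0.0251).

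The mitochondrial one-carbon enzymes take the carbon of serine onto folate. Shmt2 makes the first step, and it measured 33.3, 28.02 and 27.9 CPM at 72 h, 42.7, 51.7 and 46.5 CPM at 24 h, and 29.0, 33.9 and 40.6 CPM in air. The 24 h libraries lay above all others, and 72 h and air overlapped. The log2 fold change was -0.66 ± 0.13 at 72 h against 24 h (edgeR adjusted p = 0.014).

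Mthfd2 oxidises the folate-bound unit, and among the 6 serine and one-carbon genes it was the 1 called against air. It measured 20.4, 18.9 and 19.5 CPM at 72 h, 32.6, 30.1 and 32.8 CPM at 24 h, and 27.5, 29.5 and 32.8 CPM in air. The 72 h libraries lay below all others, while 24 h and air overlapped. The 72 h level was 0.655 of that in air (log2 fold change -0.61 ± 0.08, edgeR adjusted p = 0.0117) and 0.615 of that at 24 h (-0.70 ± 0.08, adjusted p = 0.00379). Its call against air was kept in 9 of 10 other settings and in 5 of 9 fits that left out 1 library.

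Mthfd1l releases formate from mitochondria. It measured 7.09, 4.58 and 4.57 CPM at 72 h, 10.1, 19.7 and 10.9 CPM at 24 h, and 3.19, 6.61 and 7.30 CPM in air. The 24 h libraries were the highest, with 19.7 CPM in the library that carried B cell markers. It was called lower at 72 h than at 24 h (log2 fold change -1.32 ± 0.38, edgeR adjusted p = 0.0478), a call made in 2 of 10 other settings and lost without the libraries that carried B cell markers (adjusted p = 0.0639).

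The sum of 15 proliferation genes was 1060 to 1219.7 CPM at 72 h, 1781.3 to 1872.3 CPM at 24 h and 1097.8 to 1436.3 CPM in air, and 14 of the 15 were called lower at 72 h than at 24 h, where 12.8% of all genes were. A list of 12 genes of the cytosolic folate cycle and its neighbours was compared as well. At 72 h 5 of them were called lower than at 24 h, among them Shmt1 (log2 fold change -0.67 ± 0.09), Mthfd1 (-0.54 ± 0.07) and Tyms (-0.75 ± 0.13), whose edgeR adjusted p-values were 0.00579, 0.00588 and 0.00925, and 1 was called higher, where 5.39% of all genes were. Tyms makes thymidylate for DNA synthesis. The part of dividing cells in the serine and one-carbon levels was not tested.

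**Figure D4:**
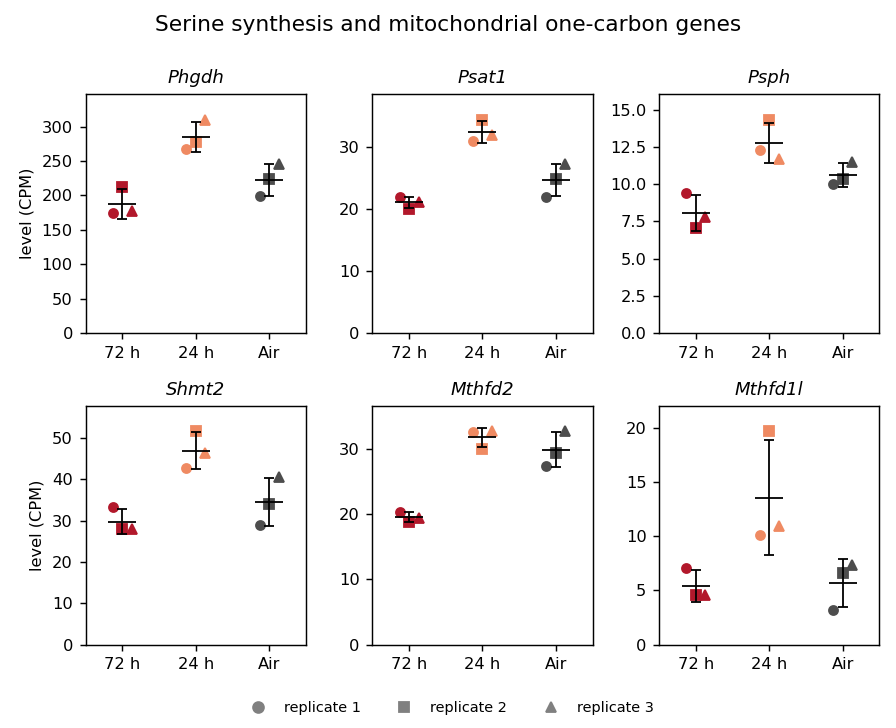
Levels in CPM (vertical axis, from 0) of the serine synthesis genes Phgdh, Psat1 and Psph and of the mitochondrial one-carbon genes Shmt2, Mthfd2 and Mthfd1l, for 72 h, 24 h and air from left to right. Shapes mark replicates, and bars and whiskers give the mean and SD of 3 mice. In all 6 genes the 24 h libraries lie above the 72 h libraries, and only Mthfd2 was called lower at 72 h than in air.

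Of the 4 transporter genes 1 was called, and only against 24 h. Slc7a5 encodes LAT1, the exchanger of large neutral amino acids, and measured 74.5, 72.6 and 74.9 CPM at 72 h, 126, 88.8 and 96.5 CPM at 24 h, and 92.4, 90.3 and 97.3 CPM in air. All 72 h libraries lay below the other 6. It was called lower against 24 h (log2 fold change -0.49 ± 0.11, edgeR adjusted p = 0.0231) and not against air (-0.33 ± 0.11, adjusted p = 0.115). Its whole locus lies opposite the annotated gene Gm20388, which had 42.4 CPM on average. Slc3a2, its heavy-chain partner and the most abundant transporter of the 4, had 109, 127 and 135 CPM at 72 h, 158, 134 and 138 CPM at 24 h, and 132, 149 and 156 CPM in air, which overlapped (-0.24 ± 0.10 at 72 h against air, adjusted p = 0.192).

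The glutamine transporter gene Slc1a5 was 1 of 7 genes in the set whose 3 libraries at 24 h lay above all 3 in air. It had 88.4, 102 and 88.5 CPM at 24 h against 73.9, 67.0 and 82.1 CPM in air, and was not called (log2 fold change 0.33 ± 0.11, edgeR adjusted p = 0.251). Slc7a1, a carrier of arginine and lysine, averaged 33.2 ± 4.64 CPM at 72 h, 38.3 ± 3.34 CPM at 24 h and 37.4 ± 2.20 CPM in air (SD, n = 3).

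Of the 12 cytosolic synthetases 2 were called lower at 72 h than in air and 4 lower than at 24 h. Of all tested genes 3.77% and 12.8% were called lower in these comparisons. All 12 estimates at 72 h were negative against air and against 24 h, with medians of -0.20 and -0.23, but Iars was close to 0. It became 0.03 and 0.01 under upper quartile scaling, 0.03 against air without the 2 libraries that carried B cell markers, and 0.07 against 24 h without replicate 1 at 24 h. Without the 2 libraries and air replicate 2 it was 0.01 against air, and Eprs was 0.000238. The 72 h libraries lay below all air libraries in 9 of the 12 genes and below all 24 h libraries in 10 of the 12, against 22.1% and 22.7% of all genes. Sars and Yars were called against air, and Sars, Yars, Mars and Tars against 24 h. At 24 h against air edgeR called 0 of the 12, as did limma voom and DESeq2. None had an unadjusted p under 0.05, where 2314 of the 15713 genes had.

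Sars, which charges serine tRNA, measured 93.8, 98.1 and 101 CPM at 72 h, 123.4, 116 and 118 CPM at 24 h, and 114, 122 and 124 CPM in air. All 3 libraries at 72 h were below the other 6. The log2 fold change was -0.29 ± 0.06 against air (edgeR adjusted p = 0.0308) and -0.29 ± 0.06 against 24 h (adjusted p = 0.0125). The call against air was kept in 6 of 10 other settings and in 1 of 9 fits that left out 1 library, and without the 2 libraries and air replicate 2 the adjusted p-values were 0.107 and 0.0509. Yars, which charges tyrosine tRNA, measured 36.8, 36.6 and 36.3 CPM at 72 h, 55.7, 43.7 and 46.0 CPM at 24 h, and 47.4, 47.9 and 52.3 CPM in air. The 72 h libraries were nearly alike and below the others. Its log2 fold change was -0.43 ± 0.09 against air (adjusted p = 0.0344) and -0.41 ± 0.09 against 24 h (adjusted p = 0.018). The call against air was kept in 4 of 10 other settings and in 2 of 9 such fits, and without the 3 libraries its adjusted p was 0.069.

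Mars, the methionine enzyme, measured 51.8, 53.1 and 55.8 CPM at 72 h, 64.6, 60.9 and 64.1 CPM at 24 h, and 57.7, 61.1 and 62.8 CPM in air. It was called lower at 72 h than at 24 h (log2 fold change -0.24 ± 0.05, edgeR adjusted p = 0.0204). Without the libraries that carried B cell markers its adjusted p was 0.0565. Mars and Ddit3 overlap by 68 bases at their ends, on opposite strands. Tars, the threonine enzyme, measured 55.1, 55.4 and 56.0 CPM at 72 h, 71.3, 61.8 and 62.5 CPM at 24 h, and 59.4, 60.9 and 66.2 CPM in air. Its call against 24 h (-0.23 ± 0.07, adjusted p = 0.047) was made in 1 of 10 other settings, and without the 2 libraries its adjusted p was 0.0767.

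Gars, the glycine enzyme, had the highest level of the 12. It measured 198, 237 and 231 CPM at 72 h, 242, 234 and 251 CPM at 24 h, and 243, 258 and 239 CPM in air, and was not called (log2 fold change -0.15 ± 0.08 at 72 h against air, edgeR adjusted p = 0.256). Nars and Cars, for asparagine and cysteine, missed the threshold at 72 h against air with adjusted p-values of 0.0663 and 0.0826. The remaining genes, Aars, Lars, Wars, Eprs and Iars, had log2 fold changes of -0.22 to -0.02 there and adjusted p-values of 0.132 to 0.898.

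The other cytosolic synthetases and the proteins that scaffold them, 11 tested, were compared next. At 72 h 2 were called lower than in air, where 3.77% of all genes were, the scaffold genes Eef1e1 (log2 fold change -0.39 ± 0.08, edgeR adjusted p = 0.0326) and Aimp1 (-0.33 ± 0.06, adjusted p = 0.0247). Upper quartile scaling called neither. Against 24 h 10 of the 11 were called lower, where 12.8% of all genes were, among them Eef1e1 (-0.61 ± 0.08, adjusted p = 0.00557), Kars (-0.39 ± 0.05, adjusted p = 0.00614) and Dars (-0.36 ± 0.05, adjusted p = 0.00673), with a median of -0.39. At 24 h against air edgeR called 0 of the 11, yet all 11 estimates were positive, with a median of 0.18. The 24 h libraries lay above all air libraries in 7 of the 11, where this held for 10.4% of all genes. Without the libraries that carried B cell markers 1 of these estimates was negative. Of the 17 mitochondrial synthetases 3 were called lower at 72 h than at 24 h, among them Yars2 and Ears2, which is 17.6% against 12.8% of all genes, and the median of the 17 was -0.22. DESeq2 size factors left 1 of them called, upper quartile scaling 0, and the fit without the libraries that carried B cell markers 1. Against air 0 of the 17 were called at 72 h by edgeR or limma voom. DESeq2 called 1 lower, where it called 1259 of 31312 genes lower. At an unadjusted edgeR p under 0.05, 3 of the 17 were lower, where 2574 of 15713 genes were. Whether the 3 lists differ from each other was not tested.

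**Figure D5:**
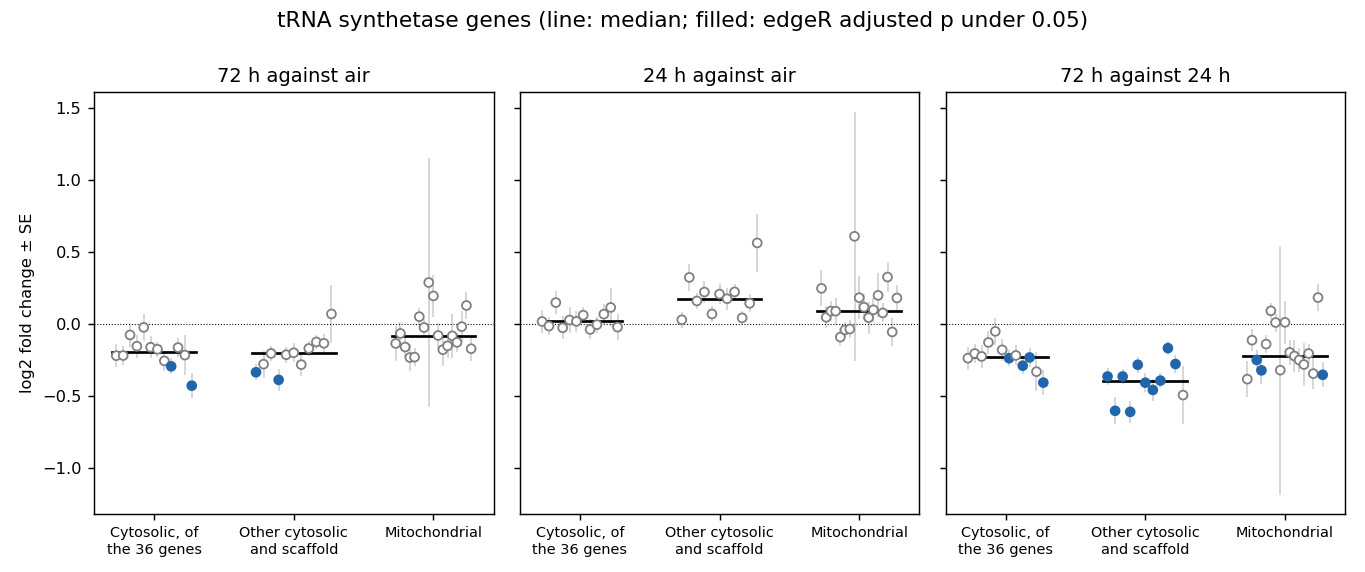
Log2 fold changes with SE (vertical axis) of the 12 cytosolic synthetases of the set, 11 other cytosolic synthetases and scaffold genes, and 17 mitochondrial synthetases, in 3 panels that set 72 h against air, then 24 h against air, then 72 h against 24 h. Each point is a gene in alphabetical order, the line is the list's median, and filled points had an edgeR adjusted p under 0.05. The long whiskers are those of Lars2, whose libraries span 80.5 to 875 CPM. Filled points number 2, 2 and 0 at 72 h against air and 4, 10 and 3 at 72 h against 24 h.

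Upstream of ATF4, 16 genes for eIF2, its exchange factor eIF2B, its kinases and their regulators, and a phosphatase subunit (Ppp1r15b) were examined. At 72 h 7 of them were called lower than at 24 h, where 12.8% of all genes were, among them the subunit genes Eif2b1 (log2 fold change -0.33 ± 0.06, edgeR adjusted p = 0.0093), Eif2b5 (-0.21 ± 0.05, adjusted p = 0.023), Eif2s1 (-0.31 ± 0.07, adjusted p = 0.0246) and Eif2s2 (-0.27 ± 0.07, adjusted p = 0.0262). The kinase genes Eif2ak1, Eif2ak2, Eif2ak3 and Eif2ak4 were not called, with log2 fold changes of 0.02, 0.33, 0.03 and 0.13 at 72 h against 24 h. Upper quartile scaling called 1 of the 16 lower and 1 higher, and removing the libraries that carried B cell markers left 1 called lower. Against air edgeR and limma voom called 0 of the 16 at 72 h. DESeq2 called 2 lower, where it called 1259 of 31312 genes lower. At an unadjusted edgeR p under 0.05, 6 of the 16 were lower, where 2574 of 15713 genes were.

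Of 20 further genes known as ATF4 targets 15 were tested. At 72 h against air 1 was called lower and 1 higher, where 3.77% and 1.71% of all genes were. Lonp1, a mitochondrial protease gene, was called lower (log2 fold change -0.25 ± 0.05, edgeR adjusted p = 0.0285), and Vegfa, the vascular growth factor gene, was called higher (1.15 ± 0.28, adjusted p = 0.0499). Vegfa averaged 1.28 ± 0.106 CPM at 72 h, 0.514 ± 0.175 CPM at 24 h and 0.579 ± 0.0637 CPM in air (SD, n = 3). Under DESeq2 size factors and under upper quartile scaling Vegfa was not called against air, and Lonp1 was not called under upper quartile scaling or without the libraries that carried B cell markers.

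Per kilobase of annotated exon, the levels of the 36 genes in air spanned 0.0449 CPM per kilobase for Pycr1 to 89.6 CPM per kilobase for Phgdh. Gars followed Phgdh with 79.1 CPM per kilobase, then Atf4 with 53.2 and Slc3a2 with 41.3 CPM per kilobase. Chac1, at 0.347 CPM per kilobase, and Ddit4, at 0.290, were close to the bottom. The genes called lower at 72 h against air therefore included an abundant one, Atf4, and scarce ones, Trib3 at 1.47 and Asns at 2.48 CPM per kilobase.

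Calls at 72 h against air were lost more readily than directions when 1 library was left out, and none of the 8 genes changed sign in these fits. The 24 h libraries are not compared here but share the fit, and why calls were lost was not tested. Leaving out replicate 1, 2 or 3 at 72 h left 2, 0 and 1 of the 36 called lower, leaving out replicate 1, 2 or 3 at 24 h left 3, 10 and 3, and leaving out replicate 1, 2 or 3 in air left 6, 1 and 1. The count over all genes moved likewise, between 7 and 1625. Without the 2 libraries that carried B cell markers 8 were called lower, with Psph in and Eif4ebp1 out, and without these and air replicate 2 it was 3. Scaling by DESeq2 size factors left 7 and by upper quartile 4, and none of these fits called a gene of the set higher. Over all genes, 268 were called higher and 592 lower, against 224 and 282 with DESeq2 size factors and 192 and 107 with upper quartile scaling.

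At 72 h against 24 h the calls of Atf4, Mthfd2, Phgdh and Psat1 were made in 9 of 9 fits that left out 1 library and in 10 of 10 other settings. The count of genes of the set called lower ran from 4 without replicate 2 at 72 h to 18 without replicate 2 at 24 h. It was 8 without replicate 1 or 3 at 24 h, 8 and 7 without replicate 1 and 3 at 72 h, and 9 without the 2 libraries that carried B cell markers and air replicate 2.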

How the data were processed

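Total RNA was extracted from lung macrophages after red cell lysis, had RNA integrity numbers of at least 8.8 and was sequenced with a stranded total RNA kit, per the labels' protocols. The authors deposited estimated counts per gene, which are not scaled to library size; 80.5% of these values are whole numbers. The submitters' processing notes name Trimmomatic 0.39, FastQC, Salmon, DESeq2 and the build GRCm38.p6. The roles of these tools, the annotation release and the strand setting are not stated there. Symbols and coordinates came from GENCODE M21, which named 54107 of 54281 identifiers. A column with 3 gene symbols and no measurements was not used. A second row named Ddit3 had too few counts to be tested.

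The estimated counts were rounded and analysed in R 4.3.3 with edgeR 4.0.16. After filterByExpr, which kept 15713 genes, and TMM scaling, 1 robust quasi-likelihood fit took in the 3 groups, with Benjamini-Hochberg adjustment over all genes tested. The common biological coefficient of variation was 0.312. SE is the log2 fold change over the root of its F statistic, and CPM use TMM-scaled library sizes. The 3 mice of a group are separate animals. The p-values judge group differences against a spread between mice that was estimated from all 3 groups and moderated across genes. The procedure was tested on simulated data. Libraries of a group were checked for copies, and none was found (chi-square per degree of freedom 6.82 to 128).

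The 36 genes, the companion lists and the marker lists were chosen with earlier results of these data known. Any of the 36 may be named; full values are given for those called in any comparison and, in each role, for the most abundant and the most changed at 72 h against air. Of each companion list up to 4 called genes with the smallest p are named, and others were named after their values were seen. Alternatives were DESeq2 size factors and upper quartile scaling, no filter, a minimum of 1 CPM in 3 libraries, DESeq2 1.42.0, limma voom (limma 3.58.1), a block for the replicate number, fits of the 6 libraries compared, fits without the libraries that stand apart, and each library left out in turn. Promoters came from RefSeq, and 7 genes without an entry (Eif4ebp1, Slc7a5, Slc1a5, Cars, Lars, Nars and Wars) were not examined for the element. A few items are left out of the text and are not reported here.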

Additional observations from a re-analysis of the deposited data

Results flagged for a closer look

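The effects at 72 h and at 24 h were both taken against the same air libraries. Their difference is therefore the comparison of 72 h against 24 h given above, not a separate result. It passed the test for 15 of the 36 genes (edgeR adjusted p under 0.05), all lower. Of all genes 12.8% were called lower and 5.39% higher. All 3 libraries at 72 h lay below all 3 at 24 h in 23 of the 36 genes, and this held for 22.7% of all genes. The 15 were among the 23, but they were called from these same libraries, so their lack of overlap is no separate support. On the log2 scale, 72 h minus 24 h, the difference was -0.37 for Atf4 and -0.73 for Atf5 among the regulators and -0.29 for the translation repressor gene Eif4ebp1. In serine synthesis it was -0.60 for Phgdh, -0.62 for Psat1 and -0.66 for Psph. In the mitochondrial one-carbon steps it was -0.66 for Shmt2, -0.70 for Mthfd2 and -1.32 for Mthfd1l. It was -0.27 for the proline synthesis gene Aldh18a1 and -0.49 for the amino acid exchanger gene Slc7a5. Among tRNA synthetases it was -0.24 for Mars, -0.29 for Sars, -0.23 for Tars and -0.41 for Yars. Of 10 other settings, the call of Tars was made in 1, that of Mthfd1l in 2 and that of Atf4 in 10.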

How the results depend on the processing

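No called gene of the set changed sign, while Iars, which was not called, turned positive in some fits. The 860 genes called at 72 h against air became 506 with DESeq2 size factors, 299 with upper quartile scaling, 270 with no filter, 459 with at least 1 CPM in 3 libraries, 382 without the 2 libraries with B cell markers and air replicate 2, 1890 with DESeq2, and 7 to 1625 with 1 library left out. The 1 gene called at 24 h against air became 0 with no filter and with 6 libraries, 7 without the 2 libraries, 580 with DESeq2, and 0 to 2 with 1 library left out. The 2855 called at 72 h against 24 h became 1696 with no filter, 1618 without the 3 libraries, and 340 to 2499 with 1 library left out, and the joint 2081 became 1167, 724 and 15 to 2232. Of the 36 genes, the 8 called lower at 72 h against air became 4 with upper quartile scaling, 4 with no filter, 3 without the 3 libraries, and 0 to 10 with 1 library left out. The 15 called against 24 h became 9 without the 3 libraries and 4 to 18 with 1 left out. The 13 joint calls became 4 without the 3 libraries and 0 to 15 with 1 left out, and DESeq2 called 3 higher at 24 h. In their deviations from group means, same-numbered libraries correlated between -0.613 and 0.475, and differently numbered ones between -0.609 and 0.731. Both -0.613 and 0.731 involved replicate 2 at 24 h, which stood apart, so these values cannot decide whether the numbers pair mice. With the replicate block 35, 0, 1474 and 106 genes were called, and 1, 0, 11 and 2 of the 36. The order is 72 h against air, 24 h against air, 72 h against 24 h and the joint test. Of 80 single-gene calls at 72 h against air in the 10 settings that did not leave out 1 library each, 24 were lost, and of 150 at 72 h against 24 h 33 were lost; the cause was not tested. Counts of 2 to 42 per library limit what Pycr1 and Chac1 can show.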

Other observations

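Amino acid sensing upstream of mTORC1 was followed in 24 genes of the Ragulator, Rag, GATOR and TSC complexes and their sensors. At 72 h against air 1 was called higher and 1 lower, where 1.71% of all genes were called higher and 3.77% lower. Slc38a9, a lysosomal arginine sensor, was called higher (46.5 ± 1.502 CPM at 72 h, 35.6 ± 2.49 CPM at 24 h and 38.6 ± 0.625 CPM in air, SD, n = 3, log2 fold change 0.27 ± 0.06, edgeR adjusted p = 0.0393). Lamtor2, a subunit of the Ragulator scaffold, was called lower (60.3 ± 2.93 CPM at 72 h, 75.8 ± 3.56 CPM at 24 h and 75.3 ± 5.67 CPM in air, -0.32 ± 0.07, adjusted p = 0.0383). This call of Lamtor2 was lost with DESeq2 size factors, with upper quartile scaling and without the libraries that carried B cell markers. These fits called 0 of the 24 lower against air, and 1, 1 and 5 higher. Against 24 h, 5 of the 24 were called lower and 2 higher, where 12.8% of all genes were called lower and 5.39% higher. The lower ones held the Ragulator subunits Lamtor5 (-0.28 ± 0.06, adjusted p = 0.0158), Lamtor2 (-0.33 ± 0.07, adjusted p = 0.0162) and Lamtor4 (-0.32 ± 0.07, adjusted p = 0.0221), and the higher ones were Slc38a9 (0.39 ± 0.06, adjusted p = 0.00745) and Tsc1 (0.26 ± 0.07, adjusted p = 0.0302). Under upper quartile scaling 3 were called lower and 3 higher, and without the libraries that carried B cell markers 1 lower and 5 higher.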
